A study of Homo sapiens with 3 samples.

Results

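Many of the DNA contacts that promoters make in human cardiomyocytes end inside a gene other than their own. This account covers the promoter interactions of hESC-CMs whose promoter-interacting region (PIR) lay within the body of another protein-coding gene, here called the host gene. An interaction was taken when both fragments were on 1 chromosome and their midpoints were at most 1 Mb apart. The PIR was never listed as a promoter fragment in the 3 replicates, and its midpoint fell in a GRCh37 protein-coding gene. No gene at that midpoint was allowed to have a transcript start in the promoter fragment. Captured promoter fragments without a listed interaction of their own could still be PIRs, and 16.9% of the contacts taken had a PIR that holds a transcript start. The rule used positions and annotation and no score beyond the deposited minimum. It took 50263 of the 200809 promoter interactions in the union of 3 replicates, or 25.0%. They were 44.9% (95% Wilson interval 44.6 to 45.2) of the 111896 interactions spanning at most 1 Mb.

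The study applied promoter capture Hi-C (PCHi-C), in which crosslinked chromatin is digested with HindIII, religated, and enriched for ligation products that carry a promoter. The 3 libraries are biological replicates of 1 condition, cardiomyocytes with no treatment named in the labels. They derive from WA09 (H9), a single human embryonic stem cell line, so that all values describe 1 genetic background. The cells were made with a cardiomyocyte differentiation kit and purified in lactate-containing medium, and per the labels purity was assessed by flow cytometry and by qPCR with *MYH7* and *TNNT2*. The residual cells of other types are part of each library, and PCHi-C calls hold no expression values with which the cardiomyocyte label could be checked here. Each call carries a CHiCAGO score, which measures how far the read count of a fragment pair exceeds a background that falls with distance. The lowest score listed was 5, so a pair not listed in a replicate scored lower there and was not shown to be absent. The replicates listed 72800, 70066 and 68751 interactions up to 1 Mb, and 32071, 30595 and 30096 of them ended inside another gene.

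The body of a gene is more than its coding sequence. Introns often contain enhancers, and such an element can act on the promoter of a neighbouring gene while leaving the gene that surrounds it unaffected. Classic cases are the limb enhancer of *SHH* within *LMBR1* and the obesity-associated intron of *FTO*, which is linked to *IRX3* and *IRX5*. Loops between distant sites are often held at pairs of bound CTCF, an insulator protein whose motif has a direction, and the motifs at both ends of a loop tend to face each other.

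Sequences from GRCh37 show what such intronic fragments look like. Each name gives the gene at the promoter and then the host gene. The fragments below are intronic, overlap no exon, and were shown because each was the strongest contact of its promoter in that host gene and is short enough to read. They are printed on the plus strand, the *GATA6*-*MIB1* fragment whole (213 bp) and the others as the first 300 bases of 318 and 312 bp. Capitals mark what is left of the HindIII site where the fragment begins. The *GATA6*-*MIB1* fragment adjoins a listed promoter fragment that has no annotated transcript start.
FOXC1-GMDS, chr6:2104492-2104791: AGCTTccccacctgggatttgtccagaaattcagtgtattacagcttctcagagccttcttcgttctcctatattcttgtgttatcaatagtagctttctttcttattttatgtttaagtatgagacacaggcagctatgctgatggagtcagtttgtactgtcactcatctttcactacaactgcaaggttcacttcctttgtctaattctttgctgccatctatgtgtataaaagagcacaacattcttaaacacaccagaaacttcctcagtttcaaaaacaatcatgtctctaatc
PAX9-SLC25A21, chr14:37619513-37619812: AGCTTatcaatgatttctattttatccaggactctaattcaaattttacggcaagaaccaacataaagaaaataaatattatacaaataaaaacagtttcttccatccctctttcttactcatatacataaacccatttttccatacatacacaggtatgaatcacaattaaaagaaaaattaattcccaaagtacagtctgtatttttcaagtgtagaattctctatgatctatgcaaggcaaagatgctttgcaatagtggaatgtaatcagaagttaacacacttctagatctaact
GATA6-MIB1, chr18:19410586-19410798: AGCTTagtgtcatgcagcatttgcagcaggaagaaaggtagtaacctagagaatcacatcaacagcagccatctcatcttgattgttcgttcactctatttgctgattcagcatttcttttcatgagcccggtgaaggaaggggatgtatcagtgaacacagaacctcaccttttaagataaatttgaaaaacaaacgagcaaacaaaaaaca
The GC content of these fragments was 38.0%, 29.7% and 39.9% in the order shown.

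A second set of sequences was chosen because these contacts carry a CTCF-like match. The letters searched were CCA, 2 bases of any kind, AGG, 1 base of any kind and GGC, on both strands, or 9 fixed letters. Each 40-base window lies in an intron, is printed on the plus strand, and has the match in capitals. A match whose plus-strand letters begin CCA is a plus-strand match and points to higher coordinates, and the others are on the minus strand and point to lower ones.
FOXC1-GMDS, chr6:2196478-2196517: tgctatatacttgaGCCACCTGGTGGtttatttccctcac
TEAD1-PARVA, chr11:12433997-12434036: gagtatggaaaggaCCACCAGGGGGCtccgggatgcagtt
DLX5-DYNC1I1, chr7:95704903-95704942: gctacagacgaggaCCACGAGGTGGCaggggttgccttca
CDKN1C-KCNQ1, chr11:2552774-2552813: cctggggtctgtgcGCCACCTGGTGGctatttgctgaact
NAXE-MEF2D, chr1:156455902-156455941: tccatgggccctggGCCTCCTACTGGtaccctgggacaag
In the printed *FOXC1*, *TEAD1* and *DLX5* windows the match pointed towards the promoter, and in the printed *CDKN1C* and *NAXE* windows it pointed away. Among the contacts from which these were drawn, 7 distinct fragments had a single match, and 5 of the matches pointed to the promoter. These include a second *NAXE*-*MEF2D* fragment, whose window overlaps an exon and is not printed. A match is a description of letters and does not show that CTCF was bound.

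Genes whose distant elements are known or were described to reside in a neighbour were examined first. The list held 24 pairs of a gene and a host gene, of which 21 had a called promoter. A contact was listed for 15 pairs, and for 11 of them at least 1 contact was listed in all 3 replicates. Together these pairs had 178 contacts, 85 of them listed in all 3. The pairs *PLN*-*SLC35F1*, *SESTD1*-*CCDC141* and *NPTN*-*HCN4* were listed because the study described them from these same libraries, so their presence is no independent observation. Without them, 12 of 21 pairs had a contact and 8 had 1 in all 3, with 123 contacts of which 55 were in all 3. Over all interactions up to 1 Mb, 33.8% were called in all 3 replicates.

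*FOXC1*, a forkhead transcription factor of eye and heart development, contacted introns of *GMDS*, which encodes an enzyme of GDP-fucose synthesis. The 25 contacts lay 477 to 600 kb from the promoter, and 13 were listed in all 3 replicates. At 493 kb, the 318 bp fragment printed above scored 27.21, 33.84 and 34.20 in replicates 1, 2 and 3. It lay in a block of 15 fragments at 482 to 508 kb, 10 of them listed in all 3. Neighbours in a block had at most 1 other fragment between them. A separate block of 9 fragments lay at 576 to 600 kb, and its strongest fragment, at 585 kb, scored 10.19, 15.95 and 17.87. That fragment carries the *FOXC1*-*GMDS* CTCF-like window. The higher-scoring block thus had its peak at a fragment without a match, and the weaker block had its peak at the match.

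*PAX9*, a paired-box factor of tooth and skeletal development, contacted *SLC25A21*, which encodes a mitochondrial carrier of oxodicarboxylates. Of 30 contacts, 17 were listed in all 3 replicates. They formed 2 main blocks, 1 of 9 fragments at 272 to 296 kb and 1 of 16 fragments at 452 to 505 kb. Scores at the peak of the farther block, the 312 bp fragment at 493 kb, were 29.11, 25.27 and 27.19. Those at the peak of the nearer block, at 287 kb, were 27.24, 25.05 and 25.46. The farther peak was the higher in each replicate, although the ranges of both overlapped.

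*DLX5* and *DLX6*, adjacent homeobox genes of limb and craniofacial development, both contacted *DYNC1I1*, which encodes a dynein intermediate chain and is known to harbour limb enhancers. *DLX5* had 19 contacts and *DLX6* had 17, with 9 listed in all 3 replicates for each. The strongest PIR was the same fragment for both promoters. It scored 31.95, 26.76 and 26.50 with *DLX5*, at 952 kb, and 15.89, 14.08 and 14.14 with *DLX6*. Scores with *DLX5* were higher in each replicate and the ranges did not overlap. With *SLC25A13*, the next gene, *DLX5* had 5 contacts and *DLX6* had 1, and none was listed in all 3 replicates.

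*SHH*, the signal that patterns the limb, had 11 contacts in *LMBR1* at 934 to 999 kb, close to the limit of 1 Mb, and the 1 listed in all 3 replicates scored 6.84, 10.28 and 6.09. *FGF8*, a growth factor of the early heart field and limb, had 9 contacts in *FBXW4*, 4 listed in all 3, and the strongest scored 9.07, 8.96 and 8.61 at 161 kb. *IRX3*, a homeobox factor of the ventricular conduction system, had 1 contact in *FTO*, at 512 kb, with scores of 8.31, 6.37 and 8.19. Its relative *IRX5* had 3 in *FTO*, and the 1 listed throughout scored 5.53, 6.04 and 9.26 at 983 kb. These contacts lay near the lowest listed score compared with the peaks of *FOXC1*, *PAX9* and *DLX5*. *PLN*, the inhibitor of the sarcoplasmic calcium pump, reached 21.68, 19.10 and 21.06 in *SLC35F1* at 268 kb. *SESTD1* had 34 contacts in *CCDC141*, 24 of them in all 3, and *NPTN* had 10 in the pacemaker channel gene *HCN4*, 2 of them in all 3.

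Single contacts in 1 replicate only were listed for *PAX6* in *ELP4* (score 5.33) and *TWIST1* in *HDAC9* (score 5.41). No contact was listed for *MYB* in *HBS1L*, *EDN1* in *PHACTR1*, *NPPA* or *NPPB* in *CLCN6*, or *MEF2C* in *TMEM161B*. For *HBA1*, *HBA2* and *GREM1* no promoter fragment was called, so these pairs gave no information.

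**Figure D1:**
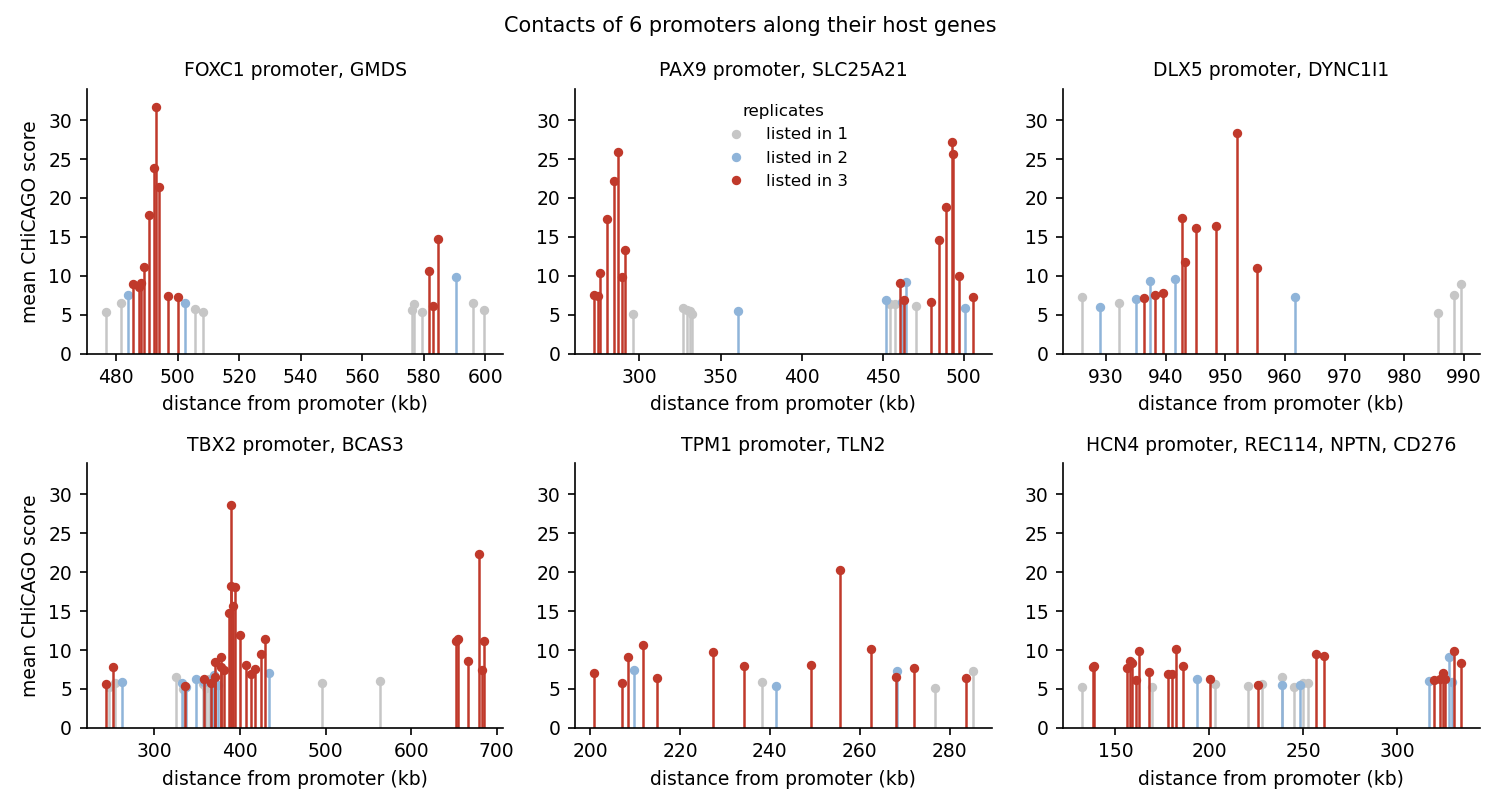
Mean CHiCAGO score (vertical axis, over the replicates that listed the contact) against distance from the promoter in kb for 6 promoters and their host genes, with each stem 1 contact coloured by the number of replicates that listed it. Contacts listed in 3 replicates gather in narrow blocks, such as 482 to 508 kb for *FOXC1* and 272 to 296 kb and 452 to 505 kb for *PAX9*.

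Among 72 genes of heart development and function, 71 had a called promoter and 42 of these had at least 1 contact inside another gene. Over all promoters, 9297 of 19075 fragments had such a contact, counted per fragment and not per gene. For 27 of the 72 genes a contact was listed in all 3 replicates. Summed over genes there were 356 contacts, 127 of them (35.7%) in all 3, against 33.8% of all interactions up to 1 Mb. As host genes, 34 of the 72 held 407 contacts, 137 of them in all 3. Among all 20163 protein-coding genes annotated, 7038 were hosts. Of the 407, 106 came from promoter fragments that overlap the host, and 64 came from fragments without an annotated transcript start, whose gene is unknown here and could be the host itself.

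The list held 23 transcription factors, of which 22 had a called promoter. Contacts inside another gene were found for 10, and for 8 of these in all 3 replicates, with 39 of 106 contacts (36.8%) listed throughout. *TBX2*, a T-box repressor of the atrioventricular canal and outflow tract, accounted for 47 of them, 27 in all 3. Each of the 47 interactions of its promoter up to 1 Mb ended in 1 gene, *BCAS3*. The peak at 389 kb scored 31.39, 24.66 and 29.91, within a block of 27 fragments at 357 to 433 kb of which 18 were listed in all 3. A second block, at 652 to 686 kb, had 6 fragments, all in 3 replicates, with a peak of 20.82, 22.36 and 24.00 at 679 kb. *TBX2* contacts thus reached far into the neighbour at discrete places.

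*GATA6*, a zinc finger factor needed for outflow tract formation, had 4 contacts inside other genes, 2 in all 3. The strongest was the 213 bp fragment printed above, in *MIB1*, a ubiquitin ligase of the Notch pathway, with scores of 16.81, 16.08 and 15.43 at 339 kb. This *MIB1* fragment adjoins a listed promoter fragment without an annotated start, at chr18:19407614-19410585. The contact therefore cannot be told apart from one with that promoter fragment. *HAND2*, a factor of the right ventricle, had 17 contacts with 2 in all 3, and its best, in *CEP44* at 793 kb, scored 13.43, 9.10 and 12.55. *HAND1*, its left ventricular counterpart, had 9 with 2 in all 3, and reached 8.14, 7.73 and 6.35 in *MFAP3*. Scores of *HAND2* exceeded those of *HAND1* in every replicate. *TEAD1*, the DNA-binding partner of YAP, reached 14.51, 9.35 and 10.19 in *PARVA*, an adhesion adaptor gene, at the fragment whose CTCF-like window is printed above. *IRX3* reached 11.68, 14.96 and 14.75 inside *IRX5* at 648 kb, above its *FTO* contact in every replicate. That *IRX5* fragment holds a transcript start and adjoins the *IRX5* promoter fragment. The contact therefore cannot be told apart from one with the *IRX5* promoter. *MYOCD*, the serum response factor coactivator, reached 7.72, 7.53 and 8.60 in *ELAC2*.

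For other factors no contact inside another gene was listed, although their promoters were called. They included *TBX3*, *TBX5*, *TBX20*, *NKX2-5*, *ISL1*, *MEF2C*, *MEIS1* and *MEIS2*. *TBX20* had 27 interactions up to 1 Mb, none of them in another gene. Several factors were instead hosts. *MEF2A*, a MADS-box factor of muscle, held 25 contacts, 8 in all 3, and *ZFPM2*, a cofactor of GATA4, held 47 with 17 in all 3. All 47 *ZFPM2* contacts came from promoter fragments that overlap *ZFPM2*, 40 of them from fragments without an annotated start. *MEF2D* introns were contacted by the promoter of *NAXE*, a metabolite repair epimerase, with scores of 11.70, 12.16 and 12.16 at 120 kb.

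Of 20 sarcomere genes, 15 had contacts inside another gene and 11 had 1 or more in all 3 replicates, with 41 of 110 contacts (37.3%) listed throughout. *TPM1*, which encodes alpha-tropomyosin, made 19 contacts, all in *TLN2*, a gene for talin, and 13 were in all 3. The best scored 22.84, 18.67 and 19.27 at 256 kb. *ACTC1*, cardiac alpha-actin, also made 19, all in *AQR*, a splicing-related helicase gene, with 9 in all 3 and a best of 11.68, 10.95 and 12.05 at 108 kb. Scores of *TPM1* were above those of *ACTC1* in each replicate. *MYBPC3*, the cardiac myosin-binding protein, spread 16 contacts over 5 host genes, and 9 were in all 3. The strongest of these reached 7.75, 11.35 and 9.51 in *NR1H3*, a nuclear receptor gene, while 10 contacts lay in *MADD*. That *NR1H3* fragment holds a transcript start and adjoins a promoter fragment with starts of *MADD* and *NR1H3*. The contact therefore cannot be told apart from one with that promoter fragment.

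*TTN*, which encodes titin, was mainly a host. Its promoter made 6 contacts, all in *SESTD1*, with 1 in all 3. Its body held 55, 20 of them in all 3, and 43 of the 55 came from promoter fragments that overlap *TTN* itself. The strongest, from the antisense transcript *TTN-AS1*, scored 12.61, 13.16 and 7.85. *NEBL*, a nebulin relative of the Z-disc, held 25 contacts with 10 in all 3, the strongest of them from the *MIR1915* promoter at 13.89, 13.31 and 12.36. *MYH6* contacted *MYH7* at 19.6 kb with 17.81, 14.39 and 9.33. These adjacent myosin genes are near-identical in places, and reads could be assigned to either copy, so this contact is uncertain. A promoter fragment with starts of both *TNNT2* and *LAD1* reached 10.16, 6.61 and 7.08 in *TNNI1*, a troponin gene. Which of its 2 genes makes the contact cannot be told. *MYL7*, the atrial light chain, had 11 contacts, none in all 3, and *TNNI3* had 11 with 1 in all 3. The *TNNI3* contact in all 3 came from a fragment that also holds a start of *DNAAF3*.

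Of 16 genes for calcium handling and ion channels, 10 had contacts inside another gene and 6 had 1 or more in all 3, with 39 of 113 contacts (34.5%) listed throughout. *HCN4*, the pacemaker channel gene, made 37 of the 42 interactions of its promoter up to 1 Mb inside other genes, and 22 of the 37 were in all 3. They ran through *REC114*, a meiotic gene, *NPTN*, a cell adhesion gene, and *CD276*, an immune checkpoint gene. Best scores were 9.03, 9.91 and 11.52 in *REC114*, 8.77, 9.73 and 9.80 in *NPTN*, and 11.44, 8.47 and 9.62 in *CD276*. Their ranges overlapped, and no host stood out. *RYR2*, the calcium release channel gene, made 28, 8 of them in all 3. Its contacts reached 8.23, 7.70 and 6.31 in *MTR*, the methionine synthase gene with 19 of the 28, and 9.46, 8.86 and 6.80 in *ACTN2*, which encodes the Z-disc protein alpha-actinin.

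*ATP2A2*, the sarcoplasmic calcium pump gene, and *IFT81*, a gene of ciliary transport, were paired in both directions. The *ATP2A2* promoter had 1 contact in all 3, in *IFT81*, at 7.24, 5.35 and 6.07, and the *IFT81* promoter had 11 contacts in *ATP2A2*, 7 in all 3, with a best of 8.26, 9.87 and 11.94.

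*KCNQ1*, a potassium channel gene at an imprinted locus, made no contact inside another gene but held 61 from 7 promoters, 16 in all 3. The strongest came from *CDKN1C*, an imprinted cell cycle inhibitor, with 22.59, 21.42 and 20.33 at 358 kb, and its fragment carries a CTCF-like match pointing away from the promoter. *CACNB2*, a calcium channel subunit gene, made 16 contacts with 1 in all 3 and held 45 with 9 in all 3. The *HACD1* promoter reached 13.93, 10.55 and 7.77 in *CACNB2*, whereas the *CACNB2* promoter reached 7.12, 5.86 and 9.62 in *HACD1*, a fatty acid elongation gene. That *HACD1* fragment adjoins the *HACD1* promoter fragment, so the contact cannot be told apart from one with the *HACD1* promoter. *GJA1*, the main ventricular connexin gene, had 47 interactions up to 1 Mb and none in another gene.

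Signals and receptors had the fewest contacts. Of 13 genes, 7 had some and 2 had any in all 3, with 8 of 27 contacts (29.6%) listed throughout. *EDN1*, the endothelin precursor gene, reached 9.41, 13.83 and 10.83 in *TMEM170B* at 707 kb. *FGF8* made 15, with 7 in all 3, and reached 9.94, 10.29 and 6.87 in *DPCD*. *NPPA* and *NPPB*, the natriuretic peptide genes, and *BMP2* and *BMP4* had none.

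**Figure D2:**
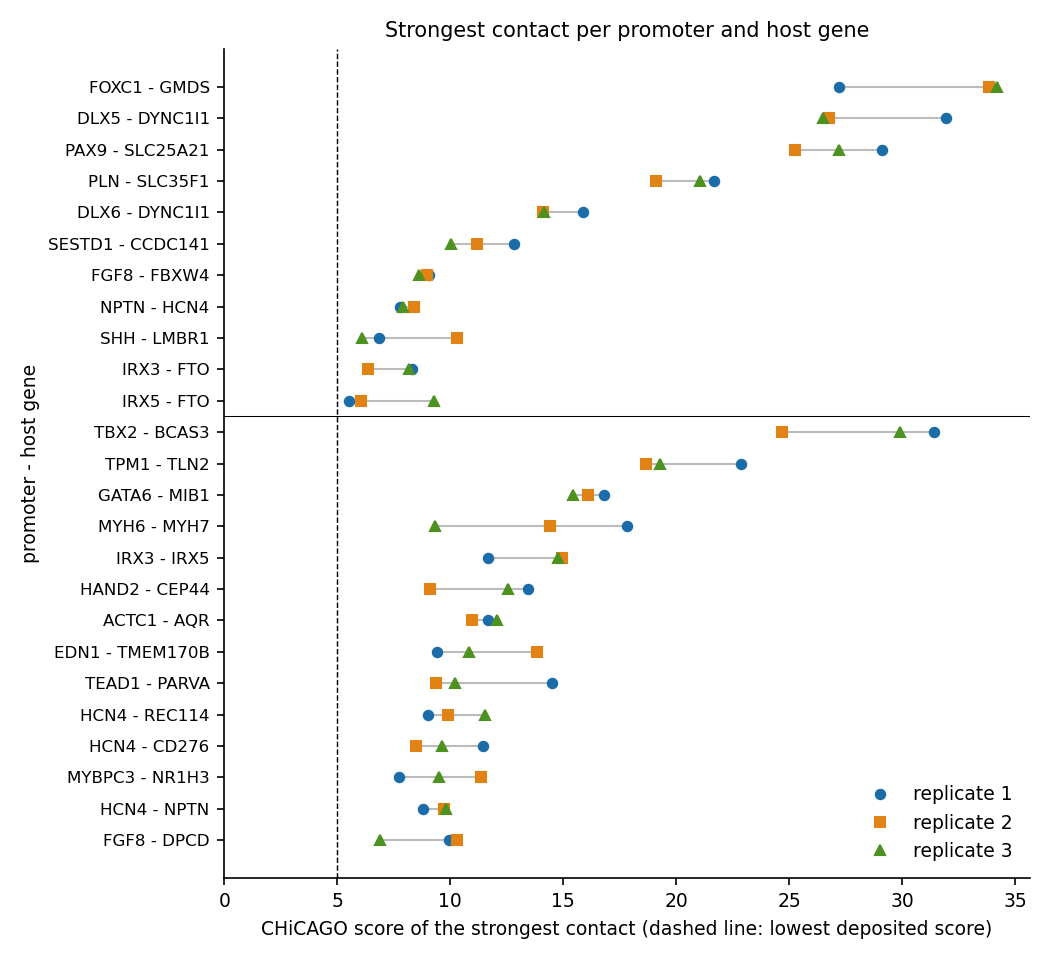
CHiCAGO score in each of the 3 replicates (symbols) for the strongest contact of each pair of promoter and host gene, with 11 listed pairs of gene and host, 3 of them taken from the study, above the line and 14 pairs of heart gene promoters with a mean score of 9 or more below it. *FOXC1*-*GMDS*, *DLX5*-*DYNC1I1*, *PAX9*-*SLC25A21* and *TBX2*-*BCAS3* have every replicate above 24, while *IRX5*-*FTO* starts at 5.53.

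Outside the named lists, the strongest contacts listed in all 3 replicates were taken by mean score, at most 1 per host gene. Their scores are therefore a description. *ADAMTS6*, a metalloproteinase gene, led with a contact in an intron of *CWC27*, a spliceosomal cyclophilin gene, at chr5:64107021-64107849, 670 kb away. It scored 51.46, 51.51 and 47.81. *INHBE*, an activin subunit gene, reached 51.95, 34.62 and 50.05 in *R3HDM2* at 148 kb. *ARRDC3*, an arrestin-related gene, reached 40.31, 34.98 and 51.84 in *ADGRV1*, a large adhesion receptor gene, at chr5:90158898-90162650. The *ADAMTS6* contact varied little between replicates, and those of *INHBE* and *ARRDC3* varied by more than 15 score units. On the merged replicates these 3 contacts scored 32.71, 33.81 and 34.47, in the reverse order and each below its replicate scores. The order of the strongest contacts is therefore uncertain, and the cause was not tested. Of the 10 contacts taken in this way, 3 had their midpoint in an exon, and none had a CTCF-like match.

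A few promoters placed nearly all their contacts in 1 neighbour. *JUN*, an immediate early transcription factor, had 55 of its 57 contacts up to 1 Mb in *FGGY*, a carbohydrate kinase gene, 35 of them in all 3. Its peak at 915 kb scored 36.83, 35.12 and 32.82, inside a block of 36 fragments at 879 to 983 kb of which 33 were in all 3. *ONECUT2*, a homeobox gene of liver and neurons, had 72 contacts in *WDR7*, 34 in all 3, with a peak of 35.55, 34.97 and 31.06 at 689 kb. *ARRDC3* had 51 in *ADGRV1* and *ADAMTS6* had 53 in *CWC27*, with 35 and 31 in all 3. These contacts are not independent observations, since neighbouring HindIII fragments share the same looped stretch of DNA.

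Some host genes were contacted mainly by members of 1 gene family. *SKAP1*, a T cell adaptor gene at chr17:46210804-46507637, held 196 contacts from 9 promoter fragments, 90 of them in all 3. Fragments at genes of the *HOXB* cluster, which encodes positional homeobox factors, accounted for 195 of these and for all 90. The numbers of *SKAP1* contacts per replicate were 139, 138 and 140. *HOXB3* had the most, 50 with 29 in all 3, and its strongest scored 15.91, 18.86 and 20.56 at 327 kb. *DIAPH1*, a formin gene of the actin cytoskeleton at chr5:140894583-140998622, held 200 contacts from 30 promoter fragments, the most promoters of any host, with 72 in all 3. Protocadherin promoters of the clustered families, which give neurons their surface identity, accounted for 194 of the 200 and for all 72. The *PCDHB16* promoter scored 23.17, 28.03 and 27.86 at its strongest. Protocadherin genes resemble each other in sequence, so the division of reads among these promoters is uncertain.

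Other leading hosts were contacted by unrelated genes. *ADK*, the adenosine kinase gene, held 144 contacts with 79 in all 3, and the *KAT6B* promoter, of a histone acetyltransferase gene, reached 37.24, 34.59 and 35.90 there. *RNF216*, a ubiquitin ligase gene, held 107 with 70 in all 3. Of the 70, 15 came from a fragment with starts of *FBXL18* and *ACTB*, beta-actin. Another fragment with a start of *ACTB* gave 14, and *FSCN1*, an actin-bundling protein gene, gave 14. *CUBN*, a receptor for intrinsic factor-vitamin B12, held 79 with 54 in all 3, and 43 of the 54 came from 2 fragments at *VIM*, the vimentin gene, with a best of 29.72, 29.78 and 30.03. *PSMD1*, a proteasome subunit gene, held 95 with 76 in all 3, so that most recurred. Of the 76, 28 came from a fragment with starts of *SNORA75* and *SNORD20*, 27 from *ENSG00000233538* and 21 from *NCL*, the nucleolin gene. In *PSMD1* 80, 90 and 90 contacts were listed in replicates 1, 2 and 3.

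The single fragment with the most promoters lay in an intron of *H2BC11*, a histone gene, at chr6:27097292-27099101. It was listed with 27 promoter fragments, 14 of them in all 3, at 501 to 995 kb. Most of these carry histone gene starts, and the fragment had no CTCF-like match. Histone genes are close copies of each other, which makes the assignment of reads to single promoters uncertain.

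Heart enhancers tested in transgenic mouse embryos, from the VISTA collection, overlapped some of the fragments in whole or in part. The study compiled its list of 91 such elements with its own interactions in view, so the overlap is given only as a description. A fragment of a contact inside another gene overlapped 24 of the 91, in 39 contacts of which 14 were in all 3 replicates. *SMAD7*, an inhibitor of TGF-beta signalling, contacted the elements mm18 and mm257 in *CTIF*, a translation factor gene, with 20.83, 16.38 and 22.44 at 168 kb. *GSG1L* contacted mm174 in *KATNIP* with 14.67, 21.76 and 16.35. *MMP15*, a membrane metalloproteinase gene, contacted mm71 in *CFAP20* with 21.17, 11.95 and 17.79. *RBM24*, an RNA-binding regulator of cardiac splicing, contacted mm132 in *CAP2* with 8.94, 8.67 and 7.41, and *NEXN*, a Z-disc protein gene, contacted mm72 in *MIGA1* with 5.43, 8.91 and 6.95. *ACTC1* contacted mm182 in *AQR* with 5.57 and 8.03 in replicates 1 and 2 and was not listed in replicate 3.

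The contacts as a whole joined 9297 of 19075 promoter fragments to 30322 fragments in 7038 host genes, of 20163 protein-coding genes annotated. Median host length was 52.3 kb, against 27.2 kb over all protein-coding genes. There were 17741 pairs of promoter fragment and host gene. Of these, 8822 had 1 contact, and 1061 had 10 or more and held 31.3% of the contacts. A promoter fragment had a median of 3 contacts and at most 82. A host gene was reached from a median of 2 promoter fragments. Promoters with a protein-coding start made 75.9% of the contacts, those with other transcript starts only made 21.4%, and 2.63% came from fragments with no annotated start. The promoter fragment overlapped the host gene in 4.66%, and 6.49% had 2 or more host genes at the midpoint.

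Distances centred on a median of 352 kb with quartiles of 217 and 548 kb, and the medians of the replicates were 337, 334 and 338 kb. Contacts outside protein-coding genes, the intergenic contacts, had a median of 422 kb and those within the promoter's own gene 194 kb. Contacts listed in all 3 replicates had a median of 309 kb and those in 1 replicate 388 kb.

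All 3 replicates listed 15827 contacts (31.5%, interval 31.1 to 31.9), below the 33.8% over all interactions up to 1 Mb. A further 10845 (21.6%) were in 2 replicates and 23591 (46.9%) in 1. Intergenic contacts were in all 3 in 34.4% (33.9 to 34.9) and own-gene contacts in 45.1%. Within a replicate, 49.3, 51.7 and 52.6% of the contacts were also listed by both others (51.2% ± 1.68, SD, n = 3). For intergenic contacts it was 52.6, 54.6 and 56.1% (54.4% ± 1.76). The paired difference was −3.20 ± 0.328 percentage points, lower inside genes in 3 of 3 replicates. An exact two-sided sign-flip permutation test over the replicates gave p = 0.25, the smallest that 3 replicates allow. No difference tested in this way could therefore pass a threshold of 0.05. Standardised over distance, the difference was −4.28 ± 0.454 points. Against own-gene contacts it was −12.8 ± 0.560 points, again with an exact p of 0.25.

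Recurrence fell with distance, from 58.9% ± 1.87 at under 100 kb to 40.6% ± 1.23 at 900 to 1000 kb. At 500 to 600 kb it was 44.3% ± 1.72 inside another gene and 53.7% ± 1.46 outside genes. Scores were also slightly lower. Median scores were 6.40, 6.40 and 6.41 in the 3 replicates and 6.62, 6.62 and 6.64 for intergenic contacts, and 13.0% ± 0.215 scored 10 or more, against 17.1% ± 0.338.

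Contacts close to other contacts of the same promoter recurred more. Runs of PIRs with at most 1 fragment between neighbours gave 22734 blocks. Of these, 13991 were single fragments, and 72.2% of contacts lay in blocks of 2 or more. The share in all 3 replicates was 9.29% for single fragments, 22.9% in blocks of 2 to 3, 42.7% in blocks of 4 to 9 and 59.9% in blocks of 10 or more, of which there were 629 with 8853 contacts. Isolated contacts were thus the least often listed in all 3. Neighbouring fragments share their DNA loop and are not independent, so these shares carry no test.

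Whether fragments inside genes were called more or less often than those outside was examined against every fragment available. There were 4584514 pairs of a promoter fragment and a fragment inside another gene up to 1 Mb away, and 1.10% were called in at least 1 replicate. The figure was 0.938% of 4369390 intergenic pairs and 2.31% of 321151 own-gene pairs. Standardised over 100 kb classes of distance, the call rate inside another gene over that outside genes was 1.117, 1.105 and 1.118 in replicates 1, 2 and 3 (1.11 ± 0.00708, log2 ratio 0.15, exact sign-flip p = 0.25). When each promoter was compared only with itself in the same distance class, the ratio turned below 1, to 0.961, 0.950 and 0.961 (0.957 ± 0.00662). A pooled ratio above 1 was thus not seen within promoters, where it lay slightly below 1 in 3 of 3 replicates.

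The ratio depended on distance. It was 1.59 ± 0.0614 under 100 kb, 1.29 at 200 to 300 kb, 1.03 at 400 to 500 kb and 0.775 ± 0.0139 at 700 to 800 kb. At 200 to 300 kb the rates were 1.30% ± 0.0464 inside another gene, 1.00% ± 0.0284 outside genes and 3.70% ± 0.164 in the promoter's own gene. Over 0 to 400 kb the ratio was 1.33 ± 0.0111, but 1.01 ± 0.00684 within promoters. Over 500 to 1000 kb it was 0.847 ± 0.0134, and 0.882 ± 0.0193 within promoters, below 1 by either measure. Against the promoter's own gene the ratio was 0.341 ± 0.00990, and 0.314 ± 0.0148 within promoters. Each of these ratios lay on the same side of 1 in 3 of 3 replicates.

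**Figure D3:**
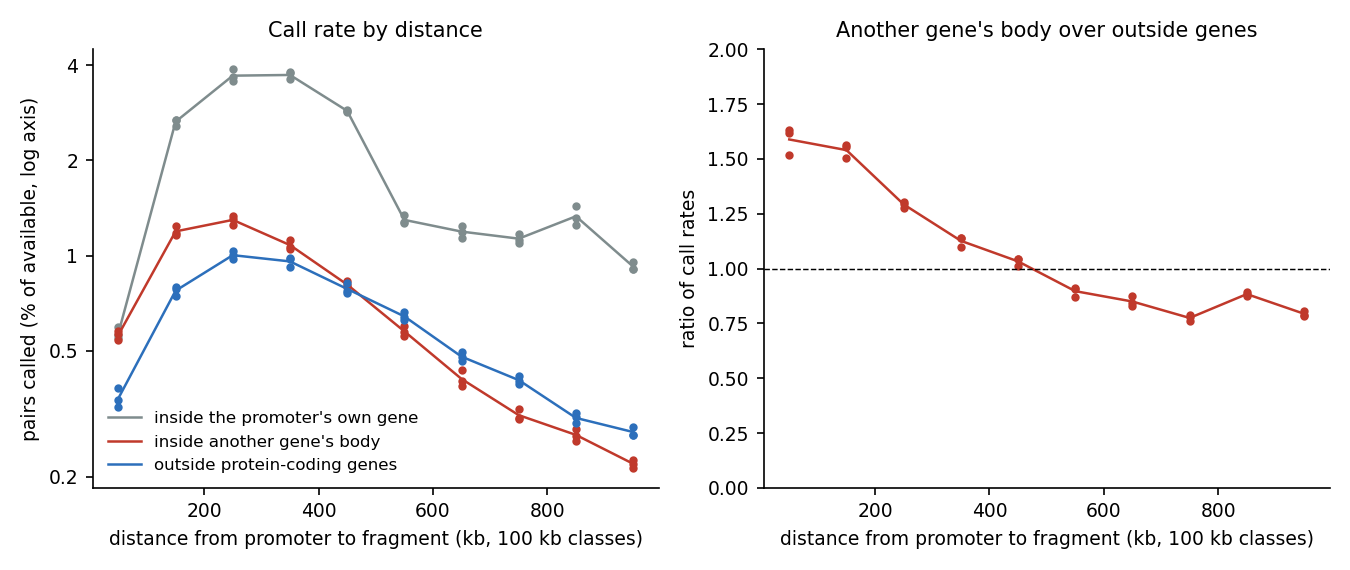
Left, percentage of available fragment pairs called (log axis) by distance in 100 kb classes for 3 kinds of fragment, and right, the ratio of the rate inside another gene to that outside genes, with points for the 3 replicates and lines for their means. The ratio falls from 1.59 under 100 kb to 0.775 at 700 to 800 kb and crosses 1 near 500 kb.

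Position within the host gene was described for the 47000 contacts with 1 host gene, against all available pairs of that kind at the same distance. An intron held the midpoint of 85.7% of contacts and 90.9% of available pairs, and an exon held 14.3% and 9.10%. The call rate of fragments centred in an exon was 1.54 ± 0.0233 times that of all pairs, and 1.38 ± 0.0212 within promoters. Ratios were highest at both ends of the host, which was divided into 10 equal bins along its transcription. Bin 1, at the transcription start, had a ratio of 1.19 ± 0.0105, bin 6 had 0.829 ± 0.0132 and bin 10, at the end, had 1.40 ± 0.00981, and within promoters these were 1.38, 0.830 and 1.40. Bin 10 held 13.4% of contacts and 9.79% of available pairs. In every replicate both end bins lay above 1 and bin 6 below it, and no bin could give an exact p under 0.25.

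Short hosts were called more often. The ratio was 1.36 for hosts under 50 kb, 0.943 at 50 to 200 kb, 0.947 at 200 to 500 kb and 0.692 above 500 kb, and within promoters 1.39, 0.795, 0.978 and 0.876. Promoters on the side of the host's 3′ end had 1.08 and those on the start side 0.956, or 1.07 and 0.878 within promoters. Promoters that overlap their host went opposite ways, with 0.747 ± 0.0197 by distance alone and 2.24 ± 0.110 within promoters. Fragments holding a transcript start also turned, from 1.06 to 0.906. Fragment length was not matched in these ratios, and its part in them was not tested.

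**Figure D4:**
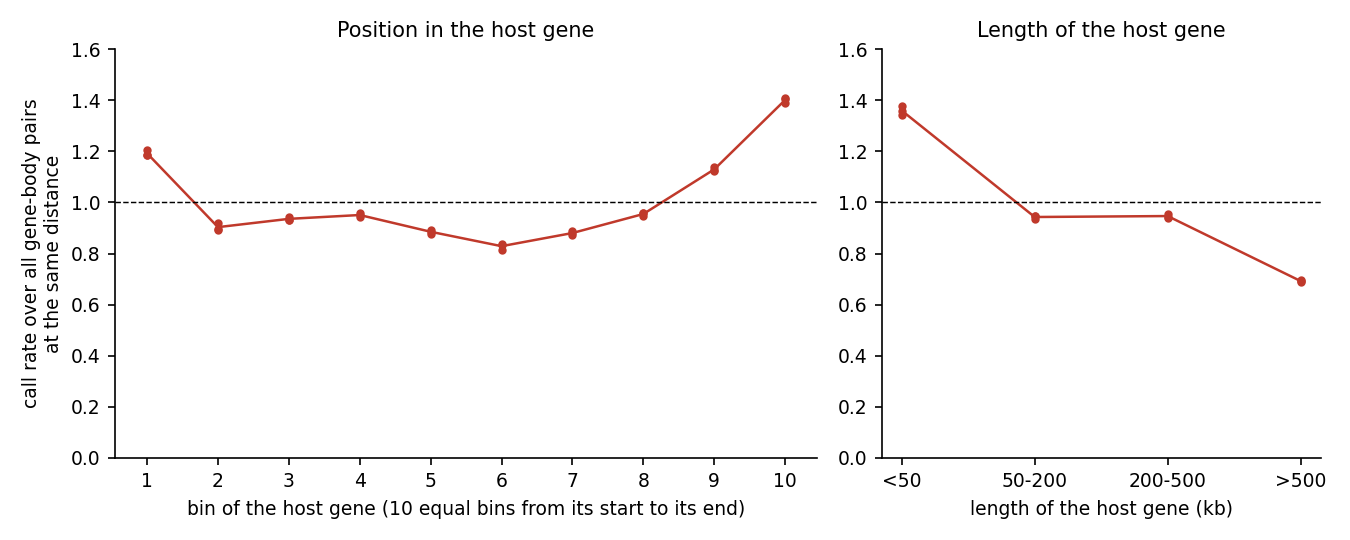
Call rate divided by that of all pairs inside another gene at the same distance, by bin of the host gene (left, 10 equal bins from its start to its end) and by length of the host gene in kb (right), with points for the 3 replicates and lines for their means. Bin 10 (1.40) and bin 1 (1.19) lie above 1, and hosts over 500 kb (0.692) lie lowest.

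A fragment inside a gene could also be in contact with that gene's own promoter. Of the 45437 contacts whose host had a called promoter fragment, the same PIR was also listed with the host's promoter in 4630, or 10.2% (9.92 to 10.5). Per replicate this was 8.97, 8.56 and 9.03% (8.85% ± 0.258, n = 3). Among contacts in all 3 replicates it was 1174 of 14477, or 8.11%, and where the promoter lay outside the host it was 9.41%. Most of these contacts were therefore listed without a contact of the host's own promoter with the same PIR. For comparison, 2.31% of all available pairs of a promoter and its own gene were called in at least 1 replicate. Distance was not matched between both shares. A median of 3 promoter fragments lay between promoter and PIR, and 9.39% of contacts skipped none. For intergenic contacts the median was 2, with 15.6% skipping none.

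The CTCF-like match introduced above was present in 1179 of the 30322 fragments (3.89%, interval 3.68 to 4.11), against 2.17% of available fragments inside other genes of the same length. For contacts in all 3 replicates it was 513 of 11452 (4.48%, against 2.05%), and for those that also had a mean score of 10 or more 161 of 2984 (5.40%, against 2.01%). Thus most contacts, including most of the strong ones, had no match. Intergenic fragments held the match in 4.31, 4.95 and 6.04% in the same order.

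The direction of the match was read for fragments with 1 match and promoters on 1 side. It pointed to the promoter in 689 of 1050 (65.6%, interval 62.7 to 68.4), in 340 of 473 (71.9%, 67.7 to 75.7) for contacts in all 3 replicates, and in 123 of 154 (79.9%, 72.8 to 85.4) for those with a mean score of 10 or more. Over the 3 replicates the share ranged from 67.5 to 68.2% (67.9% ± 0.361, SD, n = 3). *FOXC1*-*GMDS*, *TEAD1*-*PARVA* and *DLX5*-*DYNC1I1*, printed above, are of this kind. For intergenic fragments the shares were 68.7, 75.7 and 76.8%. The paired difference between both classes was −3.21 ± 0.918 percentage points, in the same direction in 3 of 3 replicates, with an exact p of 0.25. By distance the share was 64.8% at 0 to 200 kb, 67.6% at 200 to 400 kb, 67.6% at 400 to 600 kb and 65.1% at 600 to 1000 kb.

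**Figure D5:**
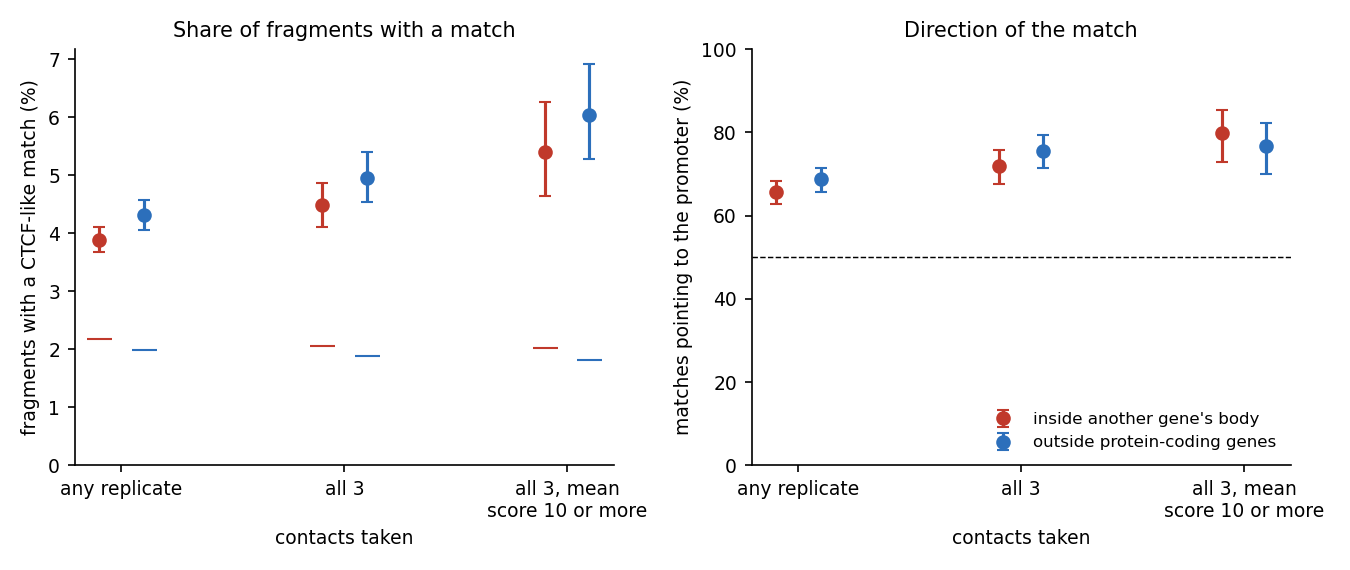
Left, percentage of fragments with a CTCF-like match (points, 95% Wilson intervals) with dashes for available fragments of the same length, and right, percentage of matches that point to the promoter, for contacts in any replicate, in all 3, and in all 3 with a mean score of 10 or more. Inside another gene the match was in 3.89, 4.48 and 5.40% of fragments and pointed to the promoter in 65.6, 71.9 and 79.9%.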

How the data were processed

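PCHi-C of 3 biological replicates of hESC-CMs was analysed. Mapping to GRCh37 (HiCUP) and interaction calling (CHiCAGO, default settings) were done by the authors, who deposited pairs of HindIII fragments with a CHiCAGO score of 5 or more, per replicate and merged. Tool versions are not given in the sources used here. Read counts and depth were not analysed, and no score was recomputed.

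Genes and transcript starts came from GENCODE 44 lifted to GRCh37, and HindIII fragments from the GRCh37 sequence. A contact is an ordered pair of fragments, and the union of the 3 replicates was used. A mean score covers the replicates that listed the contact. Available pairs were all pairs of a listed promoter fragment and a HindIII fragment not listed as one, with midpoints up to 1 Mb apart. Ratios of call rates were standardised over 100 kb classes, or compared within promoter fragment and class (Mantel-Haenszel). CTCF-like shares were matched on 500 bp classes of fragment length. Differences and log2 ratios between classes of contacts, taken within each replicate, were tested with the exact two-sided sign-flip permutation test over the 3 replicates. Wilson 95% intervals cover counting error only. Calculations used Python 3.11.15, numpy 2.4.6, pandas 2.3.3, scipy 1.17.1 and matplotlib 3.10.9 and were tested on simulated data.

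The rule for contacts and the gene lists were chosen with earlier results of these data known. Named were 24 pairs of gene and host, 72 heart genes as promoter or host, the contacts, hosts and promoters with the highest values, the fragment with the most promoters, and the heart enhancers of the study's list. A few genes of these lists are included in the counts and not reported here by name. Alternatives were score minima of 7 and 10, the merged calls, a limit of 500 kb, 50 kb classes, the whole fragment inside the gene, PIRs with a transcript start left out, 8 fixed letters of the motif, and each replicate left out. Leaving out promoters inside the host or without a start, standardising the recurrence, and the comparison within promoters were chosen after seeing the data.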

Additional observations from a re-analysis of the deposited data

Results flagged for a closer look

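Apart from the scores of the strongest contacts, the calls made on the merged replicates were not part of any comparison above. They listed 18461 contacts inside another gene's body that no single replicate listed, out of 58594 such merged contacts. Their median score was 5.59 and the highest 12.09. Conversely, the merged calls listed 59.4% of the contacts found in 1 replicate (14005 of 23591), 95.1% of those in 2 (10317 of 10845) and 99.9% of those in 3 (15811 of 15827).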

How the results depend on the processing

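Differences between classes of contacts were taken within replicates, and with 1 group of samples there was no comparison between groups to pair. The number of contacts was 50263 as reported, 18819 with scores of at least 7 and 6160 with at least 10. Under score 7, score 10, merged calls, a 500 kb limit, the whole fragment inside the gene and PIRs with a transcript start left out, in this order, the share of interactions up to 1 Mb was 40.8, 36.4, 46.1, 46.0, 43.0 and 42.0%, the median distance 357, 369, 319, 269.6, 355 and 367 kb, and the intronic share 85.9, 86.7, 86.2, 84.3, 87.8 and 88.1%. The share in all 3 replicates was 34.3, 37.4, 27.0 and 34.7% in the first 4. The host's own promoter was listed in 7.41, 4.77, 11.9 and 11.7% in the first 4. CTCF-like matches pointed to the promoter in 74.0, 77.7, 64.9, 66.2 and 68.3% without the 500 kb limit, and in 61.7% with 8 fixed letters. Of the known pairs, 7 had a contact at score 10 and 8 up to 500 kb. The call-rate ratio reversed, from 1.11 to 0.986 at score 7, 0.851 at score 10 and 0.957 within promoters, and the cause was not tested. The difference in recurrence kept its sign throughout, from −4.28 to −2.37 points.

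With 1 replicate left out, contacts numbered 41407 to 43083, the share up to 1 Mb was 44.4 to 44.6%, the share listed by both remaining replicates 45.5 to 46.6%, the difference −2.74 to −2.37 points, the median distance 346 to 348 kb, the call-rate ratio 1.11 to 1.12, the intronic share 85.6 to 85.8%, the host-promoter share 9.67 to 9.84%, the CTCF-like share 66.2 to 66.7% and the known pairs 13 to 15. The share in both of 2 replicates exceeds that in all 3 because fewer lists must hold the contact.

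Limits are that only scores of 5 or more are listed, that read depth was not analysed, that 3 replicates cannot give a sign-flip p under 0.25, that neighbouring fragments are not independent, and that a contact in an intron does not show a regulatory element. The rule leaves out contacts whose PIR was itself listed as a promoter fragment, but not those with captured promoter fragments that had no listed interaction. It also cannot tell the own gene of a promoter fragment with no annotated start.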
